A study of Mus musculus with 50 samples.

Results

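Expression of 10 genes that are known as general adipocyte genes was followed in RNA-seq libraries of mouse thyroid after antibody blockade of Notch ligands or receptors. The 10 genes were taken by name from a list, which was chosen with earlier results of these data known. Adipoq, Lep, Retn and Cfd encode secreted proteins, and Plin1, Fabp4, Lpl and Lipe encode proteins of lipid storage and use. The others are Car3 and Pparg, which encodes a transcription factor. The members are 10 of the 52636 genes in the count table, and all 10 passed the filter on low counts in every comparison. The samples were thyroids of male C57BL/6 mice, in 10 groups of 5 libraries, 50 libraries in all. Each mouse was given 1 intraperitoneal dose of antibody. The control groups (RW) were given an anti-ragweed isotype antibody at 40 mg/kg. The aJ1aJ2 groups were given antibodies against the Notch ligands Jag1 and Jag2 at 20 mg/kg each. The aN1aN2 groups were given antibodies against the receptors Notch1 and Notch2 at 5 and 10 mg/kg, and the aN1aN2aN3 group was given antibodies against Notch1, Notch2 and Notch3 at 5, 10 and 20 mg/kg. RW, aJ1aJ2 and aN1aN2 were sampled at 15 hours and at 5 days. At 7 days there were 2 sets of libraries: the first held RW and aJ1aJ2, and the second held aJ1aJ2 and aN1aN2aN3. The labels do not name these sets, and they were told apart here by the number series of the sample IDs in the titles. In the same numbers, aN1aN2 at 15 hours runs on into the 5-day libraries, apart from RW and aJ1aJ2 at 15 hours. The second set came without RW among the libraries analysed here, so aN1aN2aN3 is compared with aJ1aJ2 and not with an untreated level. The mice were wild-type per the labels. Their age is given as 10 to 12 weeks in one label and 10 to 14 weeks in another. The study's design also mentions thyroid hormone injections, and no label assigns them to a library, so it is not known whether mice of either set were injected. Libraries of a group are numbered in the labels, which do not say more about their origin, so p-values measure the spread between these libraries.

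Adipocytes store triglyceride in a lipid droplet coated by perilipin, take up fatty acids that lipoprotein lipase frees from circulating lipoproteins, and release fatty acids again through hormone-sensitive lipase. PPARγ, encoded by Pparg, is the nuclear receptor that drives adipocyte differentiation together with transcription factors of the C/EBP family, and many adipocyte genes are its targets. Mature adipocytes secrete adiponectin, leptin, resistin and adipsin (complement factor D). The thyroid lies in the neck next to muscle, fat and the parathyroid glands, and adipocytes are not part of the thyroid follicle.

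The promoters are shown because C/EBP factors are known to act on several of these genes. Pairs of the 10 genes move together to different degrees across libraries, as described further down. Any link of this with promoter sequence was not tested. The RefSeq promoter table (GRCm38.p6, windows of 300 bases from 250 before to 50 after a start) holds windows for 7 of the 10 genes, 10 windows in all. Lpl, Fabp4 and Car3 were not matched. The C/EBP motif TTGCNNAA was searched on both strands and was found in 3 of the 10 windows, 1 each of Lep, Plin1 and Pparg. It occurs in 10.8% of 32851 promoter windows of the same length. The 250 bases before the start are given 5′ to 3′ on the gene's strand, with C/EBP matches in capitals. Lep lies on the plus strand at chr6:29059971-29060220, with a match that starts 55 bases before the gene's start. Plin1 lies on the minus strand at chr7:79732777-79733026, with matches at 187 and 58 bases before it. For Pparg the window of the start farthest downstream is shown, on the plus strand at chr6:115421816-115422065, with matches at 215 and 16 bases before it.
Lep: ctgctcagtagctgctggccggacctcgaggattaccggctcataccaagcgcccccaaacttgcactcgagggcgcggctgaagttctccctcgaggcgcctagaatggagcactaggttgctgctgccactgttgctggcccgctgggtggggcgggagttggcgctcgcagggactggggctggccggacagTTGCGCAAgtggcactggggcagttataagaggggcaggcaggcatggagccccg
Plin1: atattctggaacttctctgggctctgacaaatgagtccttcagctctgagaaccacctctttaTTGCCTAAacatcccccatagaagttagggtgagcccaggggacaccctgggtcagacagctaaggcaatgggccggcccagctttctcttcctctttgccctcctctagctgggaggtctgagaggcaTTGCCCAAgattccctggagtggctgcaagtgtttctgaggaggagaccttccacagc
Pparg: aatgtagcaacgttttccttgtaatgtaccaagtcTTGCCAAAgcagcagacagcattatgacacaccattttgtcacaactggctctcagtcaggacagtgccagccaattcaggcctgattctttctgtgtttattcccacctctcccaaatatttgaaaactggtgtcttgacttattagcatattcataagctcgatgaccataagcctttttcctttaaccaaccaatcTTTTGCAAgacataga
The PPAR core element AGGTCA, present in 16.3% of all windows, was found among these genes in other windows of Pparg, and the E-box CACGTG, present in 7.15%, in a window of Lipe. No match overlapped another motif searched. These matches describe letters and were not tested for binding.

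Library depth ranged from 15271242 to 52835846 counts. The 10 genes together took 0.0867 to 1.01% of a library's counts (median 0.303%), against 0.45 to 42.4% for Tg, the thyroid hormone precursor. Both groups of the second 7-day set stood apart from the other 40 libraries: Tg took 1.15 to 6.5% of their counts, and 64% of all genes differed between the aJ1aJ2 groups of both sets. At 5 days, RW replicate 3 (Tg 0.45% of counts) and aJ1aJ2 replicate 3 (2.39%) also stood apart. The defining markers of other cell types were detected in every library: Ucp1 of brown fat, Ckm of muscle, Pecam1 of endothelium, Csf1r of macrophages, Pdgfra of stroma and Pth of the parathyroid. These are bulk libraries, so fewer adipocytes and less adipocyte RNA per cell cannot be told apart in any result below.

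Levels are given as CPM, the counts of a gene scaled to a common library size after TMM normalization, as mean ± SD over the 5 libraries of a group. To set genes beside each other, CPM was divided by the length of a gene's merged exons (CPM per kb). In RW at 15 hours, Car3, which encodes carbonic anhydrase 3, an abundant cytosolic enzyme of adipocytes and slow muscle, was at 581.2 ± 521.5 CPM per kb (SD, n = 5). Cfd, which encodes adipsin, was at 325.3 ± 110.6 CPM per kb. Fabp4, the fatty acid carrier of adipocytes, was at 63.0 ± 21.1 and Adipoq at 56.5 ± 20.4 CPM per kb. The other 6 genes lay between 39.6 ± 28.5 (Lpl) and 1.9 ± 1.5 CPM per kb (Lep), so Pparg (5.25 ± 1.61) and Lep were the lowest of the 10. The merged exons of Fabp4 (4489 bases) fill the whole span of the gene, so introns may be counted as exon. Those of Lpl (10478 bases) are longer than its longest annotated transcript (4115 bases). Values per kb may therefore be too low for such genes, and the place of Fabp4 and Lpl in this order is uncertain.

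Across groups, the 10 genes did not share 1 order. Adipoq, Retn, Cfd, Fabp4 and Pparg had their highest mean in aJ1aJ2 of the second 7-day set. Plin1, Lpl and Lipe had it in aJ1aJ2 of the first 7-day set, Lep in aJ1aJ2 at 5 days and Car3 in RW at 5 days. Some of these top places rested on 1 library. Without RW replicate 3 at 5 days, the Car3 mean there fell from 3463 to 881 CPM, rank 9 of the 10 groups. Without aJ1aJ2 replicate 2 of the first 7-day set, Lpl fell from 916 to 573 CPM (rank 6), Plin1 from 218 to 163 CPM, below RW of that set (166 CPM), and Lipe from 231 to 169 CPM, level with RW (169 CPM). The lowest mean was that of aN1aN2aN3 for Adipoq, Lep, Plin1, Lpl, Lipe and Car3, whereas Fabp4 and Pparg were lowest in RW at 15 hours, Cfd in RW at 5 days and Retn in aJ1aJ2 at 5 days. Neighbours in these orders overlapped in range, with 3 exceptions. Retn (169 ± 43.6 CPM) and Cfd (1294 ± 391 CPM) in aJ1aJ2 of the second set lay above all libraries of the next group, aJ1aJ2 of the first set (Retn 45.6 ± 10.6 CPM, Cfd 660.1 ± 169.5 CPM). Plin1 in aN1aN2aN3 (6.87 ± 7.79 CPM) lay below all libraries of the next group, aJ1aJ2 of the second set (38.8 ± 10.7 CPM).

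**Figure D1:**
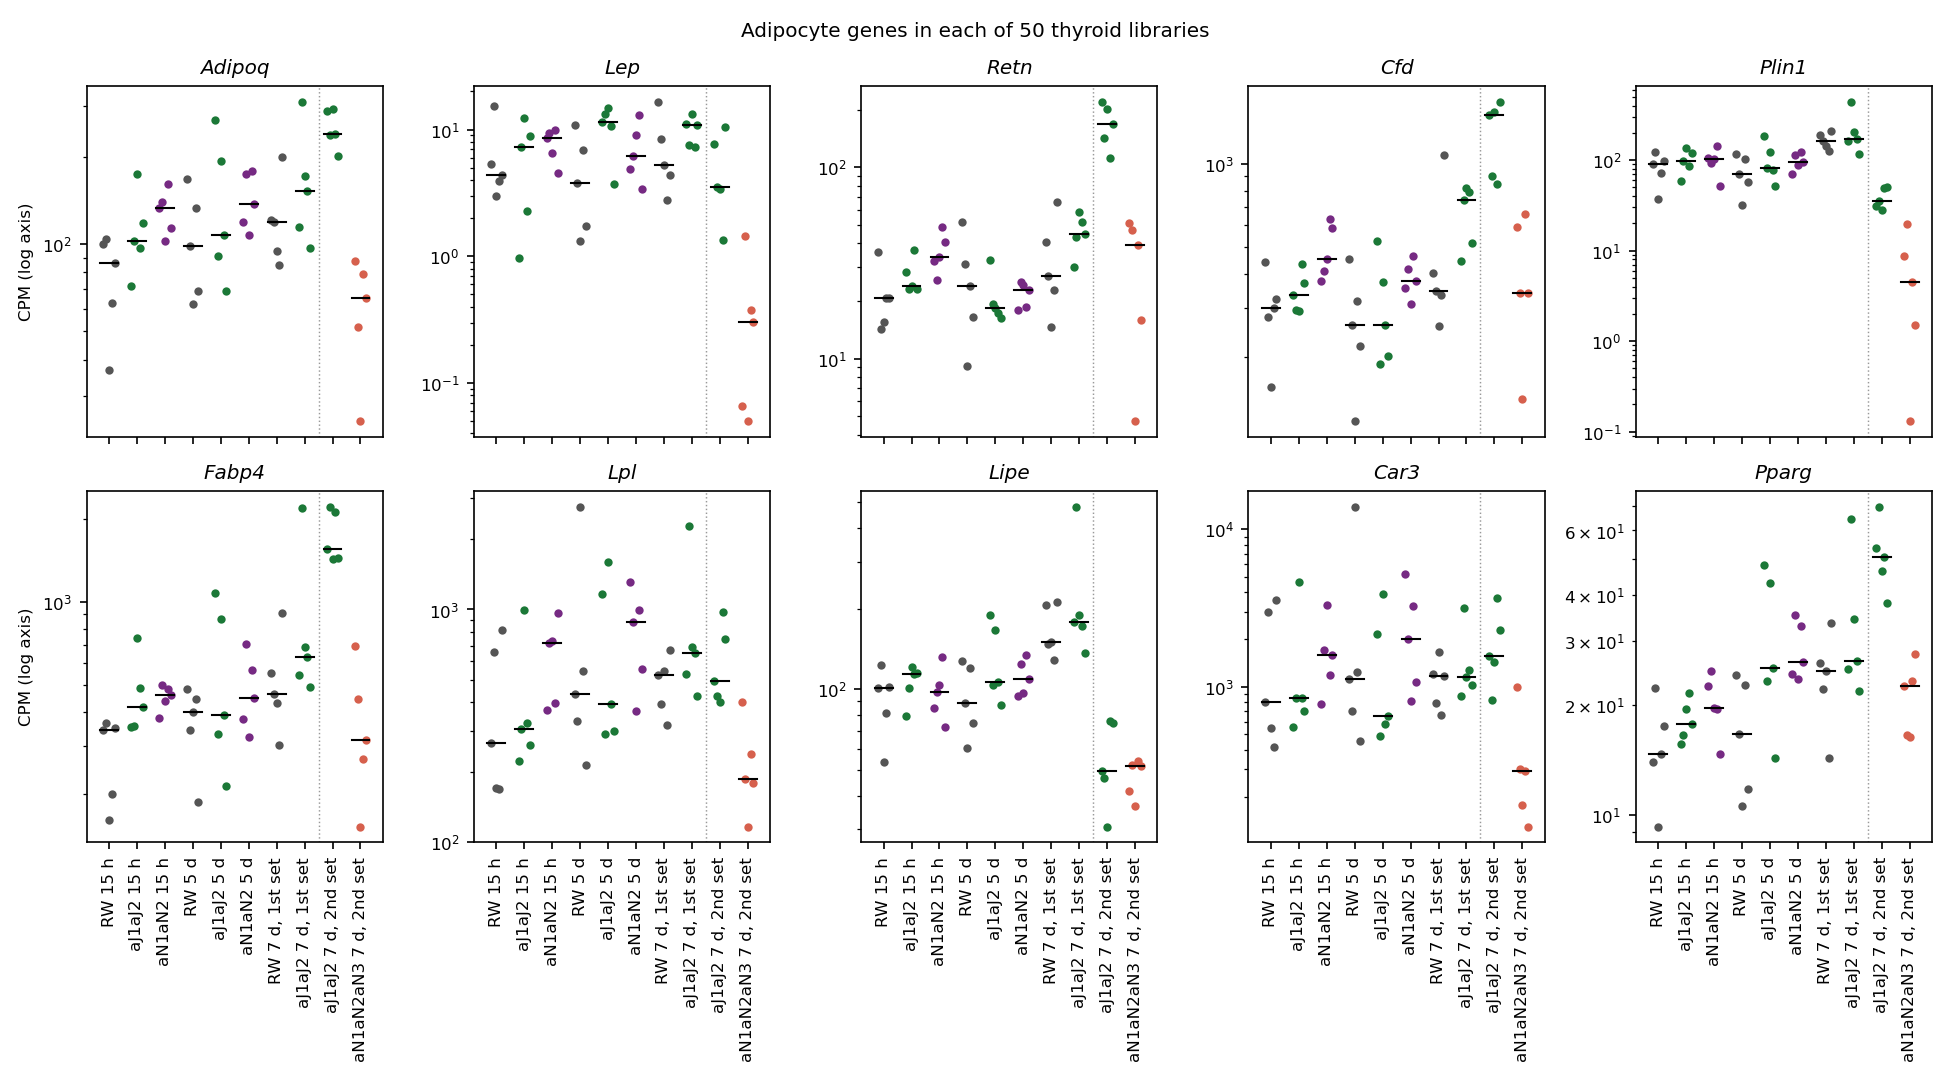
Level of each of the 10 genes (CPM, log axis) in each of the 50 libraries, by group. Points are libraries, black bars are group medians, colours mark the antibodies and a dotted line separates the second 7-day set. The 1 library in which Lep had no count is drawn at 0.05. In the second set the aN1aN2aN3 libraries sit below the aJ1aJ2 libraries for Adipoq (24.5 to 87.3 against 202 to 293 CPM), while Lipe overlaps (36.7 to 54.1 against 30.7 to 75.9 CPM).

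Whether blockade changed these genes against the isotype control was asked first at 15 hours. None of the 10 genes passed the test (edgeR quasi-likelihood test, Benjamini-Hochberg adjusted p over all genes, threshold 0.05) after aJ1aJ2 or after aN1aN2. Over all genes, 0.573% passed after aJ1aJ2 and 1.68% after aN1aN2. At an unadjusted p under 0.05 there was 1 of the 10 genes after aJ1aJ2 (Fabp4) and 4 after aN1aN2 (Adipoq, Retn, Cfd and Fabp4), where 6.59% and 14.4% of all genes had one. DESeq2 and voom also called 0 of 10 after each. Both comparisons use the same RW libraries. The log2 fold changes of the 10 genes had a median of 0.19 after aJ1aJ2, with 8 of 10 at or above 0, and of 0.47 after aN1aN2, with 10 of 10 above 0. The medians over all genes were -0.03 and 0.01.

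Retn (ENSMUSG00000012705) encodes resistin, an adipokine of mouse fat. In RW at 15 hours its replicates were at 36.1, 14.2, 15.5, 20.7 and 20.8 CPM, and after aN1aN2 at 32.4, 25.8, 33.9, 48.8 and 40.5 CPM. RW replicate 1 lay among the aN1aN2 libraries and the other 4 below them. The log2 fold change was 0.74 (SE 0.24, 95% confidence interval 0.23 to 1.26, edgeR adjusted p = 0.149). Without RW replicate 1 it was 1.03 with an adjusted p of 0.0352, so this library decided the call. After aJ1aJ2 the replicates were at 28.3, 23.1, 24.1, 36.9 and 23 CPM, a log2 fold change of 0.31 (interval -0.20 to 0.82).

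Cfd (ENSMUSG00000061780) encodes the complement protease that fat secretes. It was at 441, 279, 155, 301 and 323 CPM in RW, at 375, 409, 452, 629.5 and 587 CPM after aN1aN2, and at 336, 296, 293, 433 and 369 CPM after aJ1aJ2. The ranges overlapped, with all 5 aN1aN2 libraries above the RW mean. On the log2 scale the change was 0.69 (SE 0.23, interval 0.19 to 1.2, adjusted p = 0.175) after aN1aN2 and 0.18 (interval -0.32 to 0.68) after aJ1aJ2.

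Fabp4 (ENSMUSG00000062515) was at 343, 363, 162, 200.4 and 348 CPM in RW, at 352, 354, 737, 486 and 416 CPM after aJ1aJ2 and at 379, 498, 436, 481 and 461 CPM after aN1aN2. The aN1aN2 libraries lay above every RW library, and the ranges of these groups lay apart, in either direction, for 5.12% of all genes. Of the aJ1aJ2 libraries, 2 lay within the RW range. The log2 fold change was 0.70 (interval 0.14 to 1.27, adjusted p = 0.649) after aJ1aJ2 and 0.65 (interval 0.09 to 1.22, adjusted p = 0.265) after aN1aN2. Adipoq (ENSMUSG00000022878), which encodes the insulin-sensitising hormone adiponectin, was at 100.4, 104, 36.9, 62.6 and 86.1 CPM in RW and at 133, 140.4, 103, 161 and 114 CPM after aN1aN2. Only the lowest aN1aN2 library lay within the RW range, and the log2 fold change was 0.72 (interval 0.11 to 1.32, adjusted p = 0.249).

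The other members at 15 hours had intervals that included 0. After aN1aN2 these were Lep (log2 fold change 0.26), Plin1 (0.21), Lpl (0.59), Lipe (0.06), Car3 (0.01) and Pparg (0.36). Lpl and Car3 had wide intervals, -0.57 to 1.75 and -1.56 to 1.59. Their levels varied widely within groups: Car3 ranged from 416 to 3582 CPM in RW and from 557 to 4622 CPM after aJ1aJ2. The aN1aN2 libraries at 15 hours and the RW libraries at 15 hours were scaled apart in the deposited FPKM table, a processing block that cannot be told apart from this contrast. The direct comparison of aN1aN2 with aJ1aJ2 at 15 hours called 0 of 10 members and 0.13% of all genes. The aJ1aJ2 libraries at 15 hours share the block of RW, so the block cannot be told apart from this comparison either. The smallest p among the members was that of Cfd, with a log2 difference of 0.52 (interval 0.02 to 1.02, adjusted p = 0.386).

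At 5 days, 0 of 10 members passed the test after either blockade. Over all genes, 0.179% passed after aJ1aJ2 and 0% after aN1aN2, where 1848 genes had an unadjusted p under 0.05, DESeq2 called 486 and voom 1507. For the members, DESeq2 and voom called 0 of 10 in both. The median log2 fold change of the 10 genes was 0.48 after aJ1aJ2 and 0.38 after aN1aN2, with 7 of 10 above 0 in each, against -0.06 and -0.07 over all genes. Both comparisons share the RW libraries.

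Pparg (ENSMUSG00000000440) was the 1 of 10 members with an unadjusted p under 0.05 at 5 days, after both blockades. That count is near the share of all genes, 11.8% after aJ1aJ2 and 10.0% after aN1aN2. It was at 24.2, 16.7, 10.6, 22.7 and 11.8 CPM in RW, at 48.2, 23.2, 43.1, 25.3 and 14.3 CPM after aJ1aJ2, and at 24.3, 35.2, 23.5, 32.9 and 26.2 CPM after aN1aN2. The lowest aJ1aJ2 libraries lay within the RW range, and the lowest aN1aN2 library did too. On the log2 scale Pparg differed by 0.86 (SE 0.32, interval 0.17 to 1.54, adjusted p = 0.301) after aJ1aJ2 and 0.73 (SE 0.32, interval 0.04 to 1.42, adjusted p = 0.449) after aN1aN2. Lep (ENSMUSG00000059201), which encodes the satiety hormone leptin, was at 10.9, 3.78, 1.33, 6.84 and 1.74 CPM in RW and at 11.4, 13.2, 14.7, 10.6 and 3.73 CPM after aJ1aJ2. The groups overlapped, and the log2 fold change was 1.14 with an interval of -0.06 to 2.34. The members without a call also included Retn, which was below 0 after both blockades, at -0.33 (interval -1.08 to 0.41) and -0.27 (interval -1.02 to 0.47).

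Car3 (ENSMUSG00000027559) and Lpl (ENSMUSG00000015568), which encodes lipoprotein lipase, rested on single libraries at 5 days. Car3 was at 1128, 704, 13792, 1242 and 451 CPM in RW, at 2175, 487, 3867, 580.1 and 650 CPM after aJ1aJ2 and at 5233, 2009, 815, 3271 and 1078 CPM after aN1aN2. Lpl was at 434, 331, 2744, 544 and 214 CPM in RW, at 1165, 291, 1599, 393 and 300 CPM after aJ1aJ2 and at 1316, 885, 365, 993 and 554 CPM after aN1aN2. For both genes RW replicate 3, the library with 0.45% Tg, was the highest of the 15, and its Ckm level was 18175 CPM against 87.8 to 914 CPM in the other RW libraries. The part of muscle RNA in these values was not tested. The log2 fold change of Car3 was -1.19 after aJ1aJ2 and -0.51 after aN1aN2 with all libraries. It was 0.17 and 1.53 without the low-Tg libraries, RW replicate 3 and aJ1aJ2 replicate 3. That of Lpl moved from -0.21 and -0.08 to 0.52 and 1.14. Leaving these libraries out, an alternative chosen after seeing the data, called 0 of 10 members in each comparison and 242 and 74 genes in all. The direct comparison of aN1aN2 with aJ1aJ2 at 5 days called 0 of 10 members and 0% of all genes (778 at an unadjusted p under 0.05, 76 by DESeq2, 69 by voom). The member differences ran from -0.55 (Lep) to 0.68 (Car3), and all intervals included 0.

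In the first 7-day set, all 10 log2 fold changes after aJ1aJ2 were above 0, from 0.42 (Lep) to 0.94 (Lpl), with a median of 0.48 against 0.01 over all genes. None of the 10 passed the test, and neither did any of the 16954 genes tested (0%). At an unadjusted p under 0.05 there were 0 members and 1968 genes. DESeq2 called 476 genes and voom 621. For the members, DESeq2 called 0 and voom 1, Cfd at 1.02 (adjusted p = 0.0375). Lpl was at 525, 392, 546, 319.8 and 670.5 CPM in RW and at 526, 2288, 693, 648 and 426 CPM after aJ1aJ2. Fabp4 was at 550.5, 464, 431, 302 and 911 CPM in RW and at 541, 2197, 687, 632 and 491 CPM after aJ1aJ2. In both genes aJ1aJ2 replicate 2 stood far above the other 4 libraries, which lay within or near the RW range. The fitted change was 0.94 for Lpl (interval -0.08 to 1.96, adjusted p = 0.457) and 0.82 for Fabp4 (interval -0.21 to 1.84, adjusted p = 0.507).

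The library aJ1aJ2 replicate 2 of this set also held the most Ucp1 (1808 CPM, against 237 to 429.6 CPM in the other 4) and Ckm (9578 CPM, against 312 to 1659 CPM). The part of brown fat and muscle RNA in the members' levels was not tested. Without it, Lpl was at 0.22 (adjusted p = 0.774), Fabp4 at 0.15 (0.891), Adipoq at 0.12 (0.909), Pparg at 0.15 (0.849), Car3 at -0.02 (0.989), Plin1 at -0.02 (0.98) and Lipe at 0.00 (0.999). Retn (0.44), Lep (0.49) and Cfd (0.42) kept values close to those with all libraries, which were 0.44, 0.42 and 0.48. Of 46 other adipocyte genes in 6 lists, 42 had a log2 fold change above 0 in this comparison (median 0.57) and 0 passed the test. Without aJ1aJ2 replicate 2, a setting chosen after seeing the data for these lists, 33 of 46 were above 0, with a median of 0.18 and 0 calls.

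**Figure D2:**
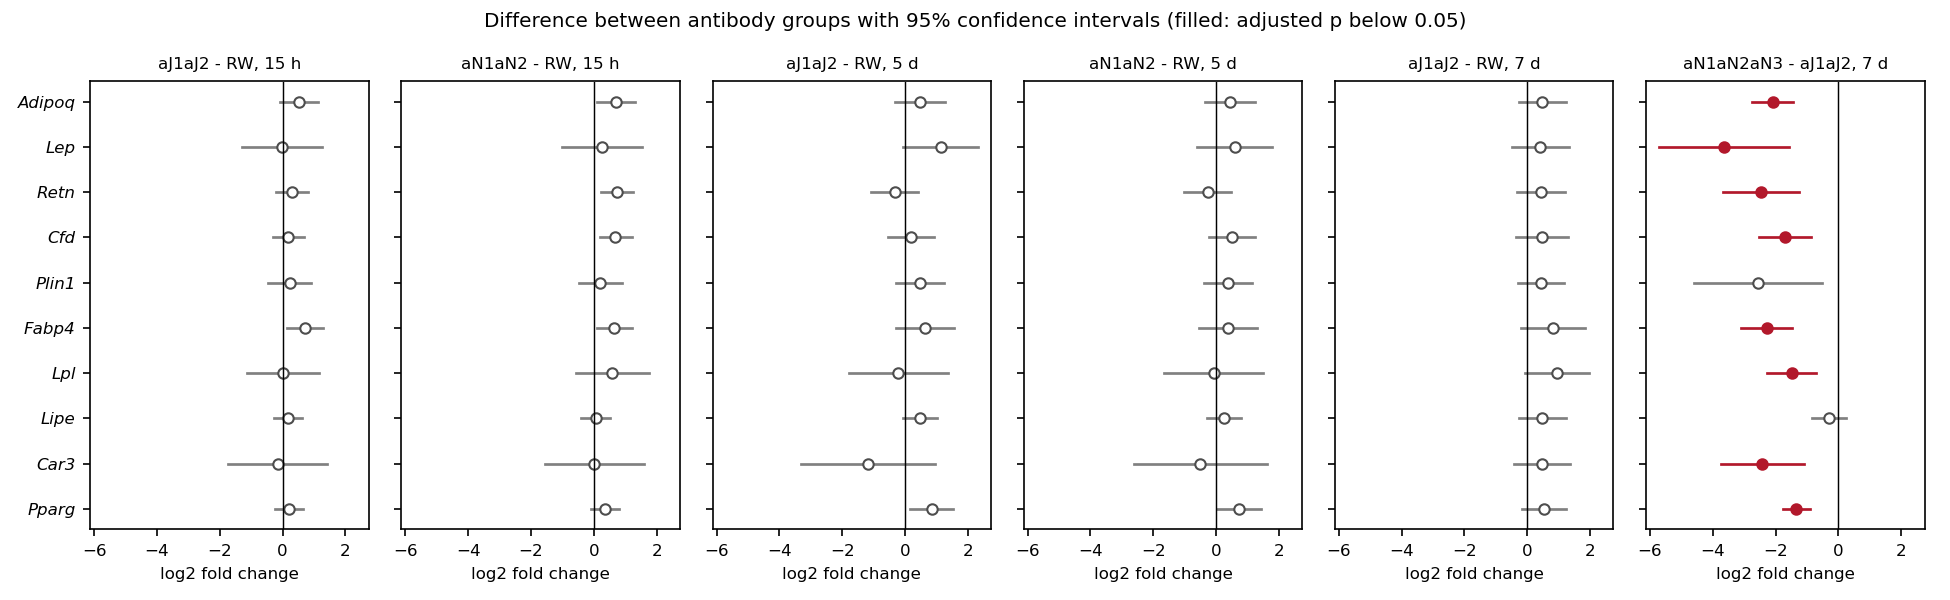
Log2 fold change of each member (points) with its 95% confidence interval (lines) in the 5 comparisons with RW and in the comparison of aN1aN2aN3 with aJ1aJ2. Filled red points passed the test. The 8 filled points all lie in the last panel and below 0, while Plin1 and Lipe there are open.

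Whether the effect of a blockade differed between times was tested as an interaction over the 40 libraries outside the second set. For aJ1aJ2, 0 of 10 members differed between 5 days and 15 hours (0.981% of all genes) and 0 of 10 between 7 days and 15 hours (0.3% of all genes). For aN1aN2, 0 of 10 differed between 5 days and 15 hours (3.14% of all genes). At an unadjusted p under 0.05 there were 0, 0 and 1 of 10 members, against 12.2%, 7.4% and 16.5% of all genes, and DESeq2 and voom called 0 in each. The member nearest to the threshold was Retn, whose aN1aN2 effect was lower at 5 days than at 15 hours by -1.02 on the log2 scale (interval -1.99 to -0.04, adjusted p = 0.273). Among the other adipocyte genes, the aN1aN2 effect was lower at 5 days for Fasn (-2.14, SE 0.54, adjusted p = 0.0214), Acaca (-1.5, SE 0.37, adjusted p = 0.0178) and Acly (-1.31, SE 0.37, adjusted p = 0.0425), 3 enzymes of fatty acid synthesis. It was higher for the fatty acid transporter Slc27a1 (0.97, SE 0.24, adjusted p = 0.0165). Fasn means were 526 ± 102 CPM in RW and 892 ± 441 CPM after aN1aN2 at 15 hours, and 912 ± 415 and 345 ± 87.2 CPM at 5 days. Neither time on its own gave a call for an adipocyte gene of these lists against RW. RW at 15 hours belongs to another FPKM processing block than the other 3 groups, which cannot be told apart from this contrast.

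In the second 7-day set, 8 of the 10 genes were lower after aN1aN2aN3 than after aJ1aJ2, against 10.4% of all genes that were lower and 19.6% that differed in either direction. All 10 log2 fold changes were below 0, with a median of -2.19, against -0.07 over all genes. In 7 of the 10 genes the 2 groups did not overlap, which held for 15.1% of all genes. Most brown fat markers were also lower and Prdm16 was higher, as given beside these results further down.

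Among the secreted proteins, Adipoq was at 289.8, 239, 293, 241 and 202 CPM after aJ1aJ2 and at 87.3, 51.7, 24.5, 78.7 and 65.3 CPM after aN1aN2aN3. Every aN1aN2aN3 library lay below every aJ1aJ2 library, the means differed 4.11-fold, and the log2 fold change was -2.09 (SE 0.30, interval -2.74 to -1.45, adjusted p = 0.00166). Retn was at 219.8, 143, 203, 112 and 169 CPM after aJ1aJ2 and at 51.1, 46.9, 4.71, 39.1 and 16 CPM after aN1aN2aN3. These ranges did not overlap either, and aN1aN2aN3 replicate 3 held the least Retn. The log2 fold change was -2.47 (SE 0.54, interval -3.68 to -1.27, adjusted p = 0.0123). Cfd was at 1505, 903, 1546, 842 and 1675 CPM against 591, 339.5, 140.3, 660 and 341 CPM, without overlap, at a log2 fold change of -1.70 (SE 0.38, adjusted p = 0.0114).

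Lep, whose product leptin signals fat stores to the brain, had the fewest counts. It was at 7.71, 3.53, 3.39, 1.34 and 10.5 CPM after aJ1aJ2 and at 0.066, 1.44, 0, 0.378 and 0.303 CPM after aN1aN2aN3. The 5 aN1aN2aN3 libraries held 63 Lep counts together, and the 0 of replicate 3 allows up to 0.0981 CPM (3 counts, counting error only). Replicate 2 of aN1aN2aN3 lay just above the lowest aJ1aJ2 library, so the groups overlapped. Its log2 fold change was -3.65 (SE 0.93, interval -5.72 to -1.58, adjusted p = 0.0225). Without aN1aN2aN3 replicate 4 the value was -3.59 with an adjusted p of 0.0574, and without replicate 5 it was -3.54 with 0.0622, so the p crossed the threshold at a similar size of difference.

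Among the genes of lipid storage and use, Fabp4 was at 1559, 2203, 1429, 2122 and 1442 CPM after aJ1aJ2 and at 690.3, 443, 153, 269 and 315 CPM after aN1aN2aN3. The ranges did not overlap, and the log2 fold change was -2.28 (SE 0.37, interval -3.09 to -1.47, adjusted p = 0.00281). Lpl was at 494, 425, 402, 972 and 744 CPM against 400.2, 187, 117, 239.5 and 180.2 CPM. Here the highest aN1aN2aN3 library lay just below the lowest aJ1aJ2 library, and the log2 fold change was -1.49 (SE 0.36, interval -2.28 to -0.71, adjusted p = 0.015). Plin1 (ENSMUSG00000030546), which encodes the droplet coat protein perilipin 1, was at 31, 34.9, 27.8, 49.4 and 51 CPM against 8.64, 19.5, 0.131, 4.54 and 1.51 CPM. Its ranges did not overlap, but the aN1aN2aN3 libraries spread widely, and at a log2 fold change of -2.55 (SE 0.91, interval -4.59 to -0.51) it did not pass the test (adjusted p = 0.0773). DESeq2 gave -2.53 with an adjusted p of 0.0297, and leaving out aN1aN2aN3 replicate 2 gave an adjusted p of 0.0397 in edgeR.

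Lipe (ENSMUSG00000003123), which encodes hormone-sensitive lipase, differed least of the 10. It was at 49.4, 46.5, 30.7, 75.9 and 74.9 CPM after aJ1aJ2 and at 41.7, 52.1, 36.7, 54.1 and 51.5 CPM after aN1aN2aN3. The groups overlapped, and the log2 fold change was -0.30 (SE 0.24, adjusted p = 0.407), with an interval of -0.83 to 0.23 that leaves out the differences measured for the 8 genes that passed. The exons of Lipe overlap those of the antisense gene 4732471J01Rik by 918 bases, and the use of strand in counting is not given in the sources used here, so the Lipe level is uncertain.

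Car3 was at 1577, 823, 1437, 3669 and 2302 CPM after aJ1aJ2 and at 994, 300, 177, 292 and 129.8 CPM after aN1aN2aN3. Only aN1aN2aN3 replicate 1 reached the aJ1aJ2 range, and the log2 fold change was -2.43 (SE 0.60, interval -3.75 to -1.11, adjusted p = 0.0183). Pparg was at 53.6, 69.4, 46.6, 50.7 and 38.1 CPM against 22.6, 16.5, 16.3, 23.2 and 27.5 CPM, without overlap. Its log2 fold change of -1.34 (SE 0.20, interval -1.78 to -0.90, adjusted p = 0.00202) was the smallest of the 8 that passed. Across the members, aN1aN2aN3 replicate 3 was the lowest of its group for Adipoq, Lep, Retn, Cfd, Plin1, Fabp4, Lpl, Lipe and Pparg, and replicate 5 for Car3.

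Markers of other tissues moved with these genes in part. The 10 brown fat markers summed to 929 to 2639 CPM (median 1844) after aJ1aJ2. After aN1aN2aN3 they summed to 179.6 to 735 CPM (median 219), without overlap. Of these markers 7 of 10 were lower and 1 was higher, Prdm16 at 0.83 (median log2 fold change -2.38). Ppargc1a, at 0.04, did not pass. Ucp1, the uncoupling protein that defines brown fat, was at 236 to 977 CPM against 1.05 to 192 CPM (log2 fold change -3.2, adjusted p = 0.108). With the mean log2 CPM of the brown fat markers as a covariate, 0 of 10 members and 0 of all genes passed. The members' log2 fold changes were then between -2.32 (Lep) and 0.92 (Plin1), with Adipoq at -1.52 (adjusted p = 0.695), Pparg at -1.28 (0.694) and Lpl at 0.02 (0.995). The covariate and the antibody separate the same libraries, so they cannot be told apart. The 9 muscle markers overlapped widely, at 281 to 135505 CPM against 5629 to 27151 CPM. With the muscle markers as a covariate, 9 of 10 members passed. The share of all genes that passed in that setting is not given here. Over the alternatives run, between 0 and 8214 genes passed in this comparison. Of the 6 stroma markers, 1 was lower (Pi16), and of the 7 endothelial markers 2 were higher and 2 lower. Of 7 macrophage markers 2 were lower, and 0 of 3 parathyroid markers passed. Of 11 thyroid follicle genes tested, Tg (1.31) and Pax8 (0.78) were higher and Slc5a5 (-1.91) lower. The part of tissue composition in the members' difference beyond these values was not tested.

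The other adipocyte genes were taken from 6 lists with 46 genes, all of which were tested. In the second set 27 were lower and 4 higher after aN1aN2aN3, with a median log2 fold change of -1.10. Of all genes, 10.4% were lower and 9.19% higher, with a median of -0.07, and the counts per list below stand against these shares. Of 9 lipogenesis genes 8 were lower (median -1.44). They included Scd1, the stearoyl-CoA desaturase, at -3.68 (SE 0.44, adjusted p = 0.000759), and Thrsp, a lipogenic protein that thyroid hormone induces, at -3.37 (SE 0.40, adjusted p = 0.000748). Scd1 was at 653 to 2336 CPM after aJ1aJ2 and at 63.7 to 229 CPM after aN1aN2aN3. Of 8 triglyceride synthesis genes 5 were lower (median -1.13), among them the acyltransferase Agpat2 at -2.44 (SE 0.26, adjusted p = 0.000493) and the glycerol-3-phosphate dehydrogenase Gpd1 at -3.17 (SE 0.44, adjusted p = 0.00166). Of 7 further lipid droplet and lipolysis genes 3 were lower (median -0.68).

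Of 8 regulators and signalling genes, 3 were lower and 1 higher. Adrb3, which encodes the adipocyte β3-adrenergic receptor, had the smallest adjusted p of the 46 genes, at -4.4 (SE 0.40, adjusted p = 0.00031). It was at 12.2, 14.6, 11.9, 34.2 and 15 CPM after aJ1aJ2 and at 0.792, 0.457, 0.687, 1.17 and 1.25 CPM after aN1aN2aN3, without overlap. Of 9 other secreted or surface proteins 6 were lower and 1 higher, with Rbp4, a retinol carrier, at -1.61 (SE 0.20, adjusted p = 0.00094). Of 5 uptake genes 2 were lower and 2 higher. The 4 genes that were higher are named after their values were seen: Cebpd (2.45), Slc27a1 (1.11), Angptl4 (1.09) and Gpihbp1 (0.73). Cebpd, an early C/EBP factor of adipogenesis, was at 37.9 to 93.7 CPM after aJ1aJ2 and at 155 to 505 CPM after aN1aN2aN3. Of 4 adipokine receptors, 1 was higher, the leptin receptor Lepr at 0.85 (adjusted p = 0.0294), and 0 were lower.

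How far the members depend on the set was read from the aJ1aJ2 groups of both sets, which carry the same antibody and time in the labels. Whether they also had the same hormone treatment is not given in the labels. Of the 10 genes, 4 were higher in the second set (34.1% of all genes) and 2 lower (29.9%), so 6 differed where 64% of all genes did. Retn was higher by 1.92 on the log2 scale (SE 0.48, adjusted p = 0.00192), Cfd by 1.00 (SE 0.39, adjusted p = 0.0329), Fabp4 by 0.97 (SE 0.42, adjusted p = 0.0468) and Pparg by 0.62 (SE 0.26, adjusted p = 0.0461). Plin1 was lower, at -2.47 (SE 0.69, adjusted p = 0.00476), and so was Lipe, at -2.03 (SE 0.30, adjusted p = 6.39e-06). The second-set range lay outside the first-set range for Retn, Cfd, Plin1 and Lipe, as for 43.3% of all genes. Adipoq (0.60), Lep (-0.89), Lpl (-0.57) and Car3 (0.41) did not pass. Scaling by library totals alone moved the median of all genes from 0.09 to 0.52 in this comparison, and the directions of the 6 called members held. Adipoq was then at 1.09 with an adjusted p of 0.00849, and without aJ1aJ2 replicate 2 of the first set it was at 0.92 with an adjusted p of 0.0113. The calls of Fabp4 and Pparg were each lost in 17 of 29 other settings, among them without any 1 of the aJ1aJ2 replicates 1, 3, 4 and 5 of the first set or 1, 2, 3 and 4 of the second. That of Cfd was lost in 7 of 29, among them without replicate 1 or 5 of the first set or 1, 3 or 5 of the second. The calls of Retn, Plin1 and Lipe were lost in 0 of 29.

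Transcript length moved with this difference between sets. From the shortest to the longest decile of transcripts, the median log2 difference of all genes went from 1.40 to -1.04, and from the lowest to the highest decile of GC content it went from 0.83 to -0.50. Retn (1139 bases), Cfd (922 bases) and Adipoq (1292 bases) are among the shorter transcripts, whereas Plin1 (2817 bases) and Lipe (3713 bases) lie near the middle or above. The longest annotated transcript of Fabp4, which was higher in the second set, has 4231 bases. The merged exons of Fabp4 (4489 bases) fill its whole gene span, so this length may include introns. The place of Fabp4 by length is therefore uncertain. Within the second set the medians by length ran from -0.33 to 0.04 and those by GC from -0.41 to 0.14. The part of length and GC in the members' differences was not tested, either between the sets or within the second set.

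**Figure D3:**
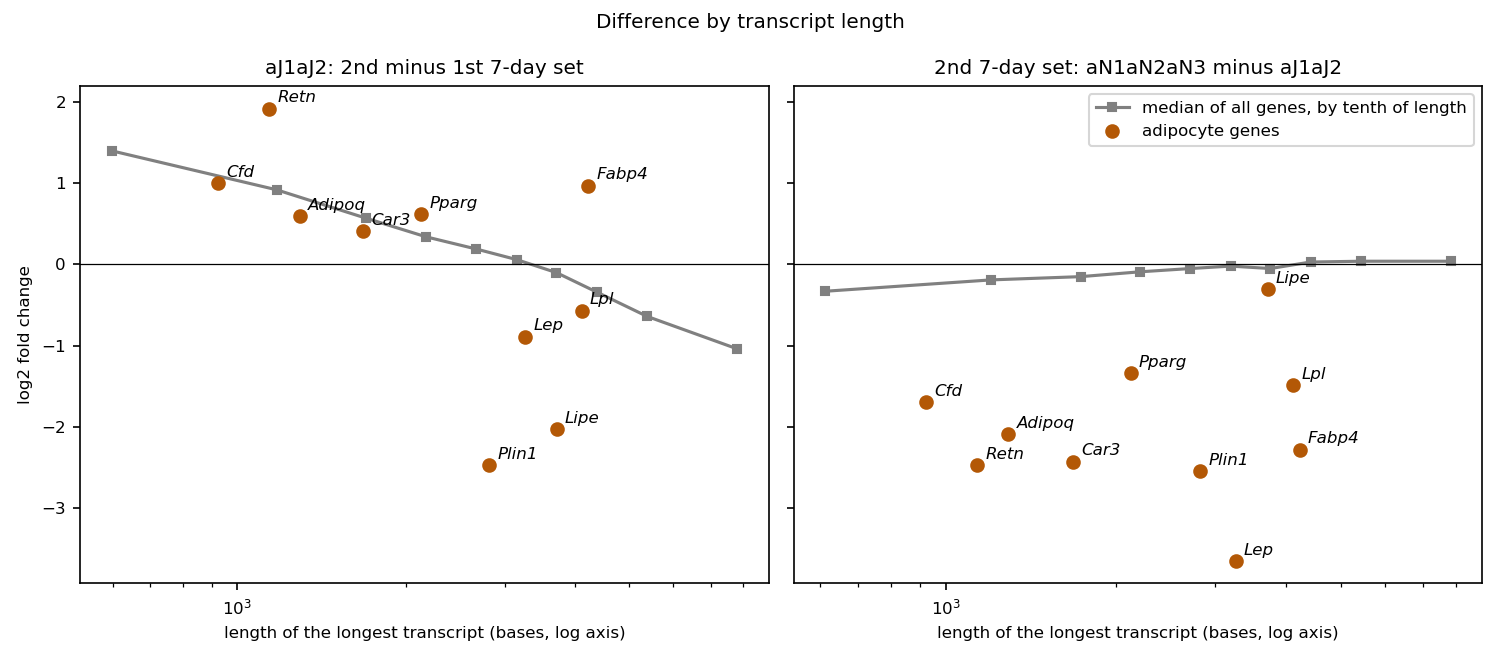
Log2 difference of the 10 members (labelled points) against the length of their longest transcript (bases, log axis), with the median of all genes in each decile of length (grey squares). Left, aJ1aJ2 of the second minus the first 7-day set, where the grey line falls from 1.40 to -1.04. Right, aN1aN2aN3 minus aJ1aJ2 within the second set, where it stays between -0.33 and 0.04 and all members lie below 0. The length drawn for Fabp4 may include introns.

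How the members follow the markers of neighbouring tissues was measured over the 40 libraries outside the second set, on log2 CPM. The family held 40 relations, counting those in the second set, for which no pooled r is given because its groups lie apart. The strongest with muscle was that of Car3 with Ckm, the muscle creatine kinase (Pearson r = 0.85, Spearman rho = 0.82, permutation p = 1e-05 each, adjusted p = 6.7e-05, n = 40). It was 0.83 without the 2 libraries farthest from the median of Ckm, 0.81 and 0.90 within the processing blocks and 0.88 within groups. Lpl followed Ckm as well (r = 0.77, rho = 0.73, permutation p = 1e-05 each, adjusted p = 6.7e-05), with r = 0.71 without the 2 farthest libraries, 0.66 and 0.91 within blocks and 0.84 within groups. Retn did not (r = -0.27, rho = -0.18, permutation p = 0.096 and 0.26, adjusted 0.18 and 0.42).

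With Ucp1, Lipe (r = 0.83, rho = 0.81), Fabp4 (r = 0.82, rho = 0.75), Plin1 (r = 0.79, rho = 0.76) and Pparg (r = 0.72, rho = 0.66) had the strongest relations, each with a permutation p of 1e-05 for r and rho (adjusted p = 6.7e-05). The p of 1e-05 is the smallest that 100000 permutations give. Libraries were permuted freely across groups and processing blocks, so group and block differences that both genes share enter these p-values. The r within groups and within blocks was not tested. Without the 2 libraries farthest from the median of Ucp1, r was 0.76 for Lipe, 0.74 for Fabp4, 0.72 for Plin1 and 0.61 for Pparg. Within groups it was 0.68, 0.81, 0.65 and 0.79. In the 2 processing blocks r was 0.90 and 0.65 for Lipe, 0.91 and 0.80 for Fabp4, 0.87 and 0.58 for Plin1, and 0.93 and 0.69 for Pparg. Lep (r = 0.32) and Car3 (r = 0.24) had the lowest r with Ucp1 over the 40 libraries, with adjusted permutation p of 0.085 and 0.23 for r, and of 0.04 and 0.072 for rho (0.38 and 0.33). Within groups the order differed: r was 0.44 for Car3, 0.34 for Cfd, 0.26 for Lep and lowest for Retn, at 0.13. Over the 40 libraries Retn was at 0.38, and in the 2 blocks at 0.54 and 0.06. Genes of one library share its scaling and depth.

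**Figure D4:**
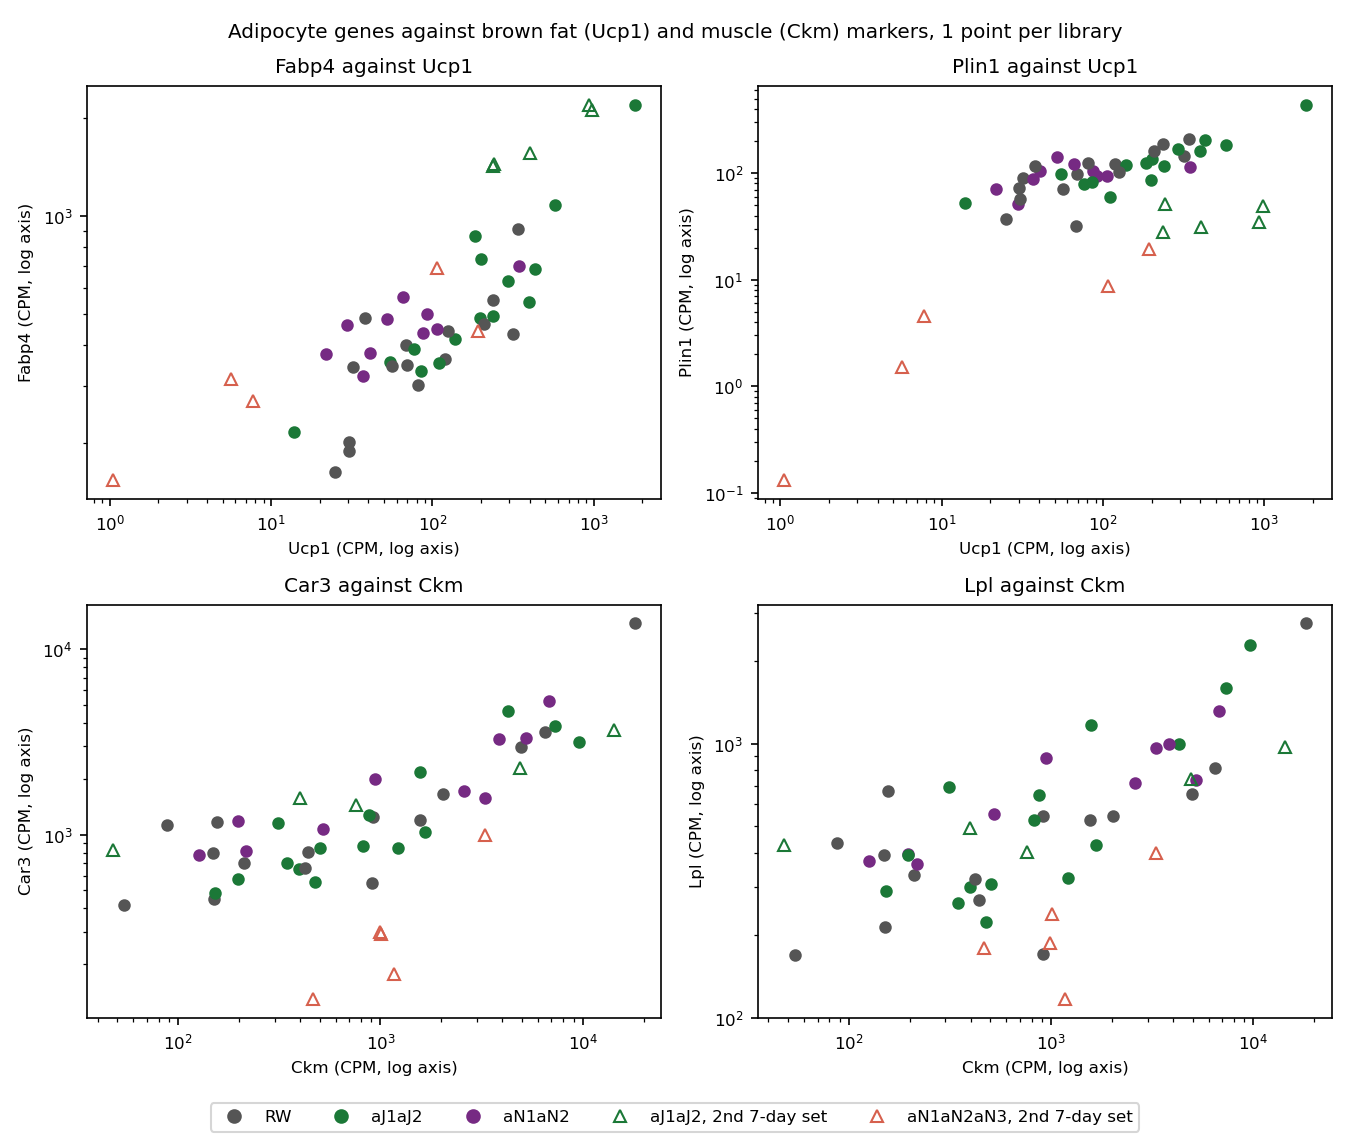
Fabp4 and Plin1 against Ucp1, and Car3 and Lpl against Ckm, 1 point per library (CPM, log axes). Circles are the 40 libraries outside the second 7-day set and open triangles are the second set, coloured by antibody. Over the circles r was 0.82 for Fabp4 and 0.79 for Plin1 with Ucp1, and 0.85 for Car3 and 0.77 for Lpl with Ckm.

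Among themselves, the members formed pairs of different closeness over the same 40 libraries. These are given as descriptions with Pearson's r of log2 CPM. Plin1 and Lipe, whose products act at the lipid droplet, were at r = 0.95, Lpl and Car3 at 0.91, Adipoq and Fabp4 at 0.90, Adipoq and Pparg at 0.88, and the secreted Retn and Cfd at 0.87. Retn with Lpl (-0.01) and Retn with Car3 (-0.19) were the lowest of the 45 pairs. Within groups, over all 50 libraries, Plin1 with Lipe was at 0.60 and Lpl with Car3 at 0.94. Over all 50 libraries, the genes outside the list most like the mean of the members, among 21536 candidates, were Dgat2 (r = 0.94), Prkar2b (0.93), Fmo1 (0.91), Cd1d1 (0.91), Ces1f (0.89), A530016L24Rik (0.89), Pon1 (0.89), Slc36a2 (0.89), Acvr1c (0.89) and Gm30918 (0.88). Over the 40 libraries without the second set, r of these genes was 0.76 to 0.91, highest for Dgat2, which encodes the last enzyme of triglyceride synthesis.

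For single members over 50 libraries, the genes most like Adipoq were Fmo1 (r = 0.88) and Cidec (0.88), a lipid droplet protein. Those most like Lep were Mmd (0.87) and Lgals12 (0.87), and those most like Plin1 were Slc36a2 (0.95) and Trarg1 (0.94). Retn and Cfd were each other's nearest gene (0.91), followed by Fcor (0.90) for Retn and Mrap (0.89) for Cfd. Fabp4 was most like Adig (0.96) and Lncbate1 (0.91), Lipe most like Cebpa (0.91) and Slc25a22 (0.89), and Pparg most like Cdo1 (0.90) and Acsm3 (0.88). Lpl and Car3 shared Pfkfb1 as the nearest gene (0.96 each), with Eif4e3 (0.92) next for Lpl and Gypc (0.94) next for Car3. These r include the second set, so differences between the sets enter them, and none is given without that set. For example, Lipe (-2.03) and Cebpa (-2.72) were both lower on the log2 scale in aJ1aJ2 of the second set than of the first.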

How the data were processed

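RNA-seq of 50 mouse thyroid libraries was used. The authors deposited whole-number read counts per gene without normalization, and FPKM values (scaled to length and depth). GSNAP and limma are named in the submitters' processing notes, without their roles. Build, annotation, counting program and strand use: not given in the sources used here. Every column matched 1 library, with 0 unmapped columns. Symbols were matched by Ensembl ID to GENCODE M21, and 233 genes had none. The deposited FPKM values follow the length of the whole gene span (r = 0.988 over 10117 genes), not of the exons (r = 0.703), and their library factors fall into 2 blocks. FPKM was therefore not used for levels as had been planned, and CPM per kb of exon was used instead.

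Counts were tested in R 4.3.3 by the quasi-likelihood method of edgeR 4.0.16 (TMM, filterByExpr set to counts of 10 per library and 15 in total, robust glmQLFit, glmQLFTest). The groups of each time were fitted together, each 7-day set on its own, the 20 libraries of both 7-day sets for the comparison between sets, and 40 libraries for interactions. The tests are 2-sided, Benjamini-Hochberg adjustment ran over every gene tested in a comparison, and the threshold is 0.05. Intervals are 95% confidence intervals. The code was tested on simulated data. Correlations use log2 CPM (prior count 2) and 100000 permutations, which ignore groups and processing blocks. Alternatives were other scalings and filters, DESeq2 1.42.0, limma 3.58.1 (voom with library quality weights), covariates, a replicate block and leaving out each library.

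Replicates of a group differed by a chi-square statistic per degree of freedom of at least 17.1 over 100 pairs, so all counted separately. Depth was 15271242 to 52835846 counts. The floor given for a count of 0 covers counting error only, whereas the intervals also include the spread between libraries. The members and lists were chosen with earlier results of these data known. Besides the 10 members, genes of the adipocyte lists past the threshold were named, at most the 6 with the smallest adjusted p in a comparison, together with 1 defining marker per tissue and the genes most like the members.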

Additional observations from a re-analysis of the deposited data

Results flagged for a closer look

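For each of the 10 genes, the 5 libraries of each of the 10 groups were screened for a library set apart from the other 4. Of these 100 groups of values, 7 were flagged (7%). Chance would flag about 1 in 20 if the values were independent and normal on the log2 scale, which was not tested. Of the 7, 3 fell in 1 library and 2 in another. Lep in aJ1aJ2 at 5 days was low in replicate 5, at 3.73 CPM, with the other libraries at 10.6 to 14.7 CPM. Retn in the same group was high in replicate 1, at 32.8 CPM against 16.3 to 19.3 CPM.

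In aJ1aJ2 of the first 7-day set, replicate 2 was high for 3 genes of lipid storage and use. Fabp4 was at 2197 CPM against 491 to 687 CPM, Lpl at 2288 CPM against 426 to 693 CPM, and Lipe at 478 CPM against 136 to 189 CPM. The same library held the highest Ucp1 (1808 CPM) and Ckm (9578 CPM) of its group. In aJ1aJ2 at 15 hours, replicate 3 was high for Lpl, at 999 CPM against 223 to 324 CPM, and for Car3, at 4622 CPM against 557 to 846 CPM. It held the highest Ckm of its group (4265 CPM). Without it the aJ1aJ2 effect at 15 hours was -0.58 for Lpl (edgeR adjusted p = 0.753) and -1.18 for Car3 (adjusted p = 0.702), with 0 of 10 members called either way.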

How the results depend on the processing

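No member passed in any comparison with RW, in any direct comparison at 15 hours or 5 days or in any interaction, under each alternative run, with 2 exceptions. After aJ1aJ2 at 7 days, voom with library quality weights called 1 member, Cfd (1.02, adjusted p = 0.0375). After aN1aN2 at 15 hours, leaving out 1 library called between 0 and 1 members, namely Retn without RW replicate 1. In the second 7-day set, 8 members were called, 7 to 9 when 1 library was left out, 6 to 9 under the other scalings, filters and tools, the muscle covariate and the replicate block, and 0 with the brown fat covariate, where Lpl turned to 0.02. Lep lost its call without a count filter (adjusted p = 0.063) and under the replicate block (0.0593), and Car3 without a count filter (0.0508). Plin1 was called by DESeq2 (0.0297), voom (0.0201) and with the muscle covariate (0.0361). Between the sets, 6 members were called, 3 without a count filter and 3 to 7 when 1 library was left out. The 5-day fit without both low-Tg libraries was chosen after seeing the data.

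Counts over all genes moved more. After aJ1aJ2 they were 106 at 15 hours (36 to 318, from the replicate block to DESeq2), 33 at 5 days (0 to 3475) and 0 at 7 days (0 to 621). After aN1aN2 they were 311 at 15 hours (186 to 935) and 0 at 5 days (0 to 1507), and between the blockades 24 (11 to 557) and 0 (0 to 76). In the second set the count was 3614 (0 with the brown fat covariate to 8214 with voom), and between sets 12530 (10083 to 15137). The interactions gave 193 (25 to 3216), 59 (24 to 562) and 618 (228 to 1717). Of the causes of these shifts none was tested. Replicate numbers paired the libraries in only 17 of 40 same-number pairs (correlation over 0.1, range -0.59 to 0.72), and 9 correlated best with their own number. The replicate block called 7 members in the second set, 5 between sets and 0 elsewhere. Library totals alone moved the median of all genes from -0.06 to 0.16 after aJ1aJ2 and from -0.07 to 0.11 after aN1aN2 at 5 days. Of the 106 member results without a call, 61 changed sign in at least 1 of their settings, 24 of them in 1 setting. Over the 3374 settings of these results, 211 (6.25%) had the other sign without a call.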
